A study of Bos taurus with 147 samples.

Results

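The genes described here encode the proteins of the cytosolic ribosome, measured in bovine longissimus muscle by two-colour cDNA arrays. They were taken from the array annotation by their names alone: every array element with a single gene symbol that started with RPL or RPS and a digit, or with RPLP and a digit, or that was RPSA, without the RPS6 kinases and without the mitochondrial ribosomal proteins. This gave 49 genes on 258 of the 21168 array elements, 30 of the large and 19 of the small ribosomal subunit, among 976 named genes in all. Each gene was covered by 2 to 16 elements, which are pairs of spots of the same clone: 13 genes rested on 1 clone, 16 on 2 clones and 20 on 3 or more. The clones came from cDNA libraries of muscle and fat of an adult steer. Elements that also carried a second gene name were left out, which removed RPLP0, RPS26, RPL12, RPL17 and RPL6. A ribosomal protein transcript may also hybridise to clones of its processed pseudogenes or paralogs, which the arrays cannot tell apart.

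A ribosome is built of a small subunit, which holds the mRNA and reads its codons, and a large subunit, in which the peptide bonds are formed. In growing tissues the mRNAs of these proteins are abundant, and many of them share a pyrimidine-rich start through which their translation, more than their level, is adjusted. The number of ribosomes in skeletal muscle sets how much protein the tissue can make, and it is known to rise with growth.

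The 25 fetal and newborn arrays compared 8 groups: muscle of Piedmontese x Hereford and of Wagyu x Hereford cattle at d60, d135 and d195 of gestation and at birth. All dams were Hereford, so the groups of a stage differed in the sire breed. The Piedmontese sires carried 2 copies of a missense mutation of GDF8 (myostatin, a brake on muscle growth), which the Wagyu sires did not, so each Piedmontese-sired animal inherited 1 copy from its sire. The arrays formed a closed loop with 3 arrays per link (4 between d195 and d135 in the Wagyu crosses). On 20 later arrays the same crosses were compared at times that the labels call T1, T2 and T3 without an age, with 4 arrays per time between the sire breeds and 2 arrays per step in time within each. The study's methods name 3 animals per group but do not tie them to arrays, so the arrays are treated as replicates and the p-values measure only the spread between arrays. All d60 fetuses of a sire breed shared a sire, as did all d135 Wagyu and all d195 Piedmontese crosses. The d195 Piedmontese crosses held a pair of twins. All newborn calves were female, whereas the d195 fetuses of each sire breed were of both sexes. For some d60 fetuses the sex was not determined. The fits held no term for sex, so it was not separated from stage. The paper describes d60 muscle as not yet distinct and hard to free from skin. It also reports that RNA amplification may have biased the array sample of 1 Piedmontese-sired d60 fetus. For these reasons the paper centred its discussion on d135, d195 and birth, so the d60 comparisons given here carry that limit.

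Only ratios were analysed here, so no level of one gene is set against that of another. A log2 ratio of 1 is a 2-fold difference. Its direction is taken as likely from the dyes named in the labels. The muscle markers ran in the direction that the labels give: 14 of 17 rose from d60 to birth, including TCAP by 4.20 (SE 0.338), MYOZ1 by 3.42 (SE 0.265) and MB by 3.32 (SE 0.24), while MYOG and MYF5, regulators of early muscle formation, fell. All 11 measured fibroblast genes fell over the same time, with a median of -2.69, led by FN1 at -4.67 (SE 0.257), COL3A1 at -3.88 (SE 0.208) and LUM at -3.36 (SE 0.25). In such bulk tissue, fewer cells of a type and less RNA per cell cannot be told apart.

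Some arrays stood apart from the others of their link in the genes described here. On array 1 of the sire breed comparison at d60 the median of the 49 genes was 0.174 (Piedmontese-sired over Wagyu-sired), against -0.532 and -0.672 on arrays 2 and 3. At birth it was -0.057 on array 1 and 0.964 and 0.712 on the others. In the Wagyu crosses, array 3 of birth over d195 had a median of -0.176, against -1.06 and -0.981. The counts for the comparisons that rest directly on these arrays are given with and without them. Some counts without an array stand below without the share of all features in that fit. For those, a loss among these genes cannot be told from a loss over all features.

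**Figure D1:**
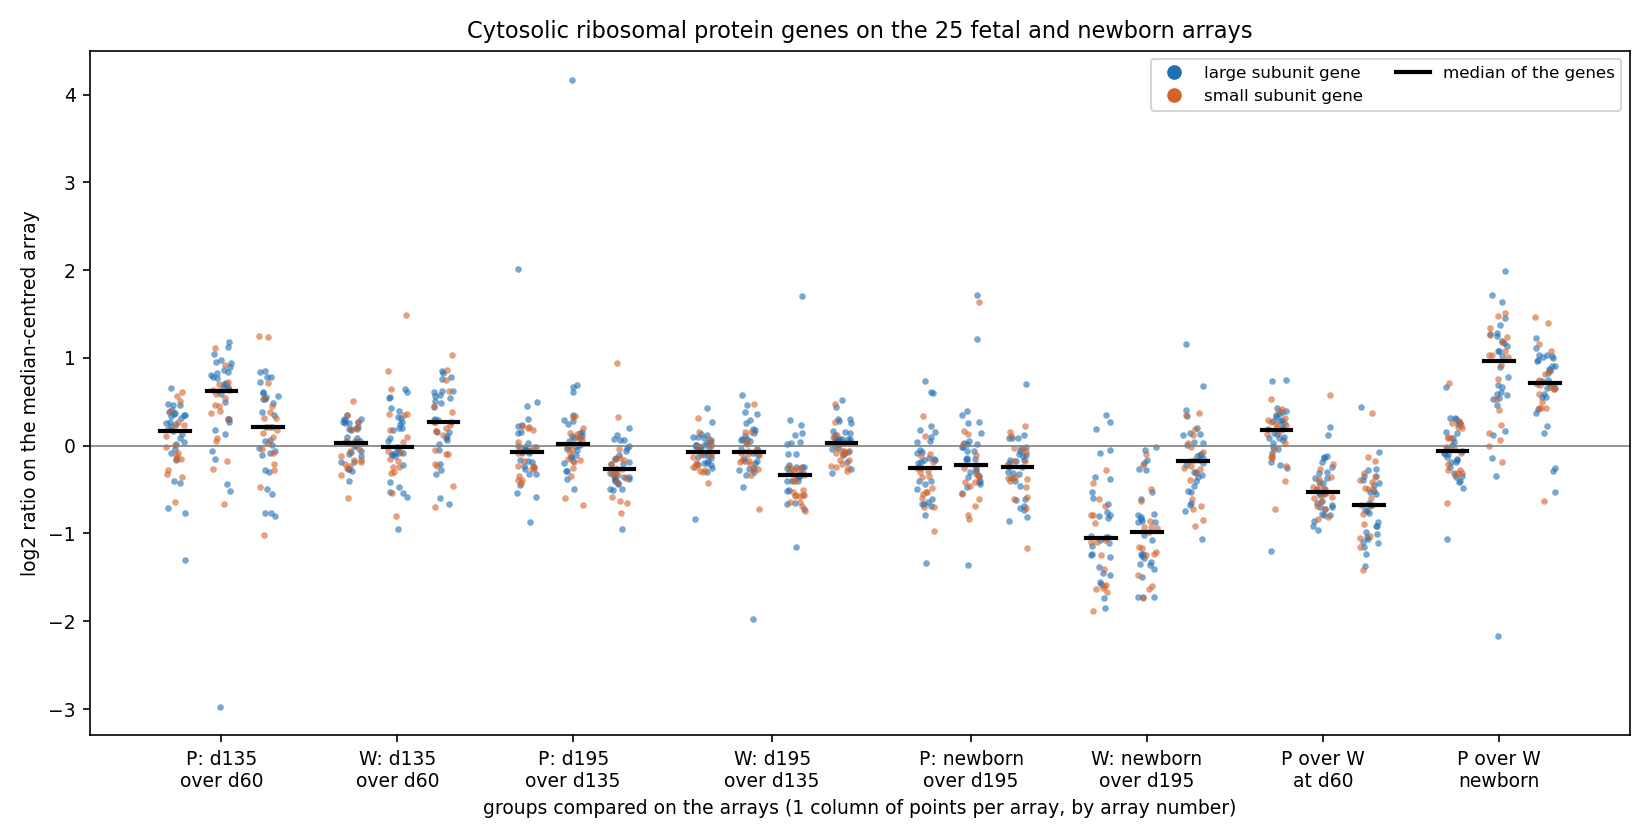
Log2 ratios of the 49 cytosolic ribosomal protein genes on each of the 25 fetal and newborn arrays, turned so that the later stage or the Piedmontese-sired group (P) is the numerator (W, Wagyu-sired). Each point is the mean of a gene's elements, bars are the median of the genes on an array, and the genes sat below 0 on most arrays of birth over d195 and moved as a block on single arrays of the sire breed comparisons.

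The first question was how these genes changed between the earliest fetal muscle and birth. From d60 to birth, taken as the mean of both sire breeds, 10 of the 49 genes fell and 1 rose. The genes that fell by most were RPSA, which also serves as a laminin receptor, and RPL8 and RPS4X, core proteins of the large and the small subunit. Of all features tested, 25.6% fell and 22.6% rose (limma, Benjamini-Hochberg adjusted p under 0.05), against 20.4% and 2.04% of the ribosomal protein genes. The median of the 49 genes was -0.399, against -0.066 over all features and -0.216 over the other named genes.

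RPSA changed by -1.56 on the log2 scale from d60 to birth (SE 0.249, limma adjusted p = 2.32e-05). Its 4 clones gave values between -1.86 and -1.32. RPS4X, whose gene lies on the X chromosome, changed by -1.32 (SE 0.179, limma adjusted p = 2.8e-06), and RPL8, which lines the peptidyl transferase region, by -1.39 (SE 0.322, limma adjusted p = 0.00117). The clones of RPL8 lay close together, between -1.42 and -1.34. All of these also fell within each sire breed. In Piedmontese crosses the changes were -1.37 for RPSA, -1.11 for RPS4X and -0.90 for RPL8, the last with an adjusted p of 0.0499. In Wagyu crosses they were -1.75, -1.54 and -1.88.

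The other genes that fell from d60 to birth were mostly of the small subunit: RPS20 by 1.02, RPS12 by 1.00, RPS16 by 0.92, RPS2 by 0.63 and RPS18 by 0.62 on the log2 scale, with RPL4, which lines the exit tunnel, by 0.86 and RPL7A by 0.67. In all, 7 of 19 small subunit genes fell (36.8%) against 3 of 30 large subunit genes (10%), with medians of -0.469 and -0.389. Within Piedmontese crosses the shares were 10.5% and 10%, and within Wagyu crosses 63.2% and 53.3%. The difference between the subunits was not tested. RPS20, RPS12, RPS16 and RPS18 were among the genes whose change differed between the sire breeds, given below. In the mean of both sire breeds, leaving out single arrays left 10 to 15 genes past the threshold. The 15, all lower, were reached without array 3 of birth over d195 in Wagyu crosses. In that fit 26.7% of all features fell and 23% rose.

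RPLP1 was the gene that rose. With RPLP2 it forms the flexible stalk of the large subunit that recruits translation factors. Its change from d60 to birth was 1.06 (SE 0.377, 95% interval 0.27 to 1.84, limma adjusted p = 0.0251), and all 6 of its clones gave a positive value, between 0.586 and 1.30. Its partner in the stalk, RPLP2, gave -0.39 (95% interval -1.10 to 0.32, adjusted p = 0.357). The difference between these genes was not tested. The call for RPLP1 was lost without array 3 of birth over d195 in either sire breed and without array 2 of d195 over d135 in Piedmontese crosses (adjusted p of 0.0509 to 0.0586), and it was lost without centring (0.90, adjusted p = 0.0754).

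Of the genes with the most elements, RPL13A, RPL18 and RPL37A did not pass the threshold over this time. RPL13A gave -0.40 (adjusted p = 0.239), RPL18 -0.43 (adjusted p = 0.0757) and RPL37A -0.09 (adjusted p = 0.777), while RPS12, RPSA and RPLP1 are given above. The clones of RPL13A spread from -1.09 to 0.04, so a gene's value depended on the clone.

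**Figure D2:**
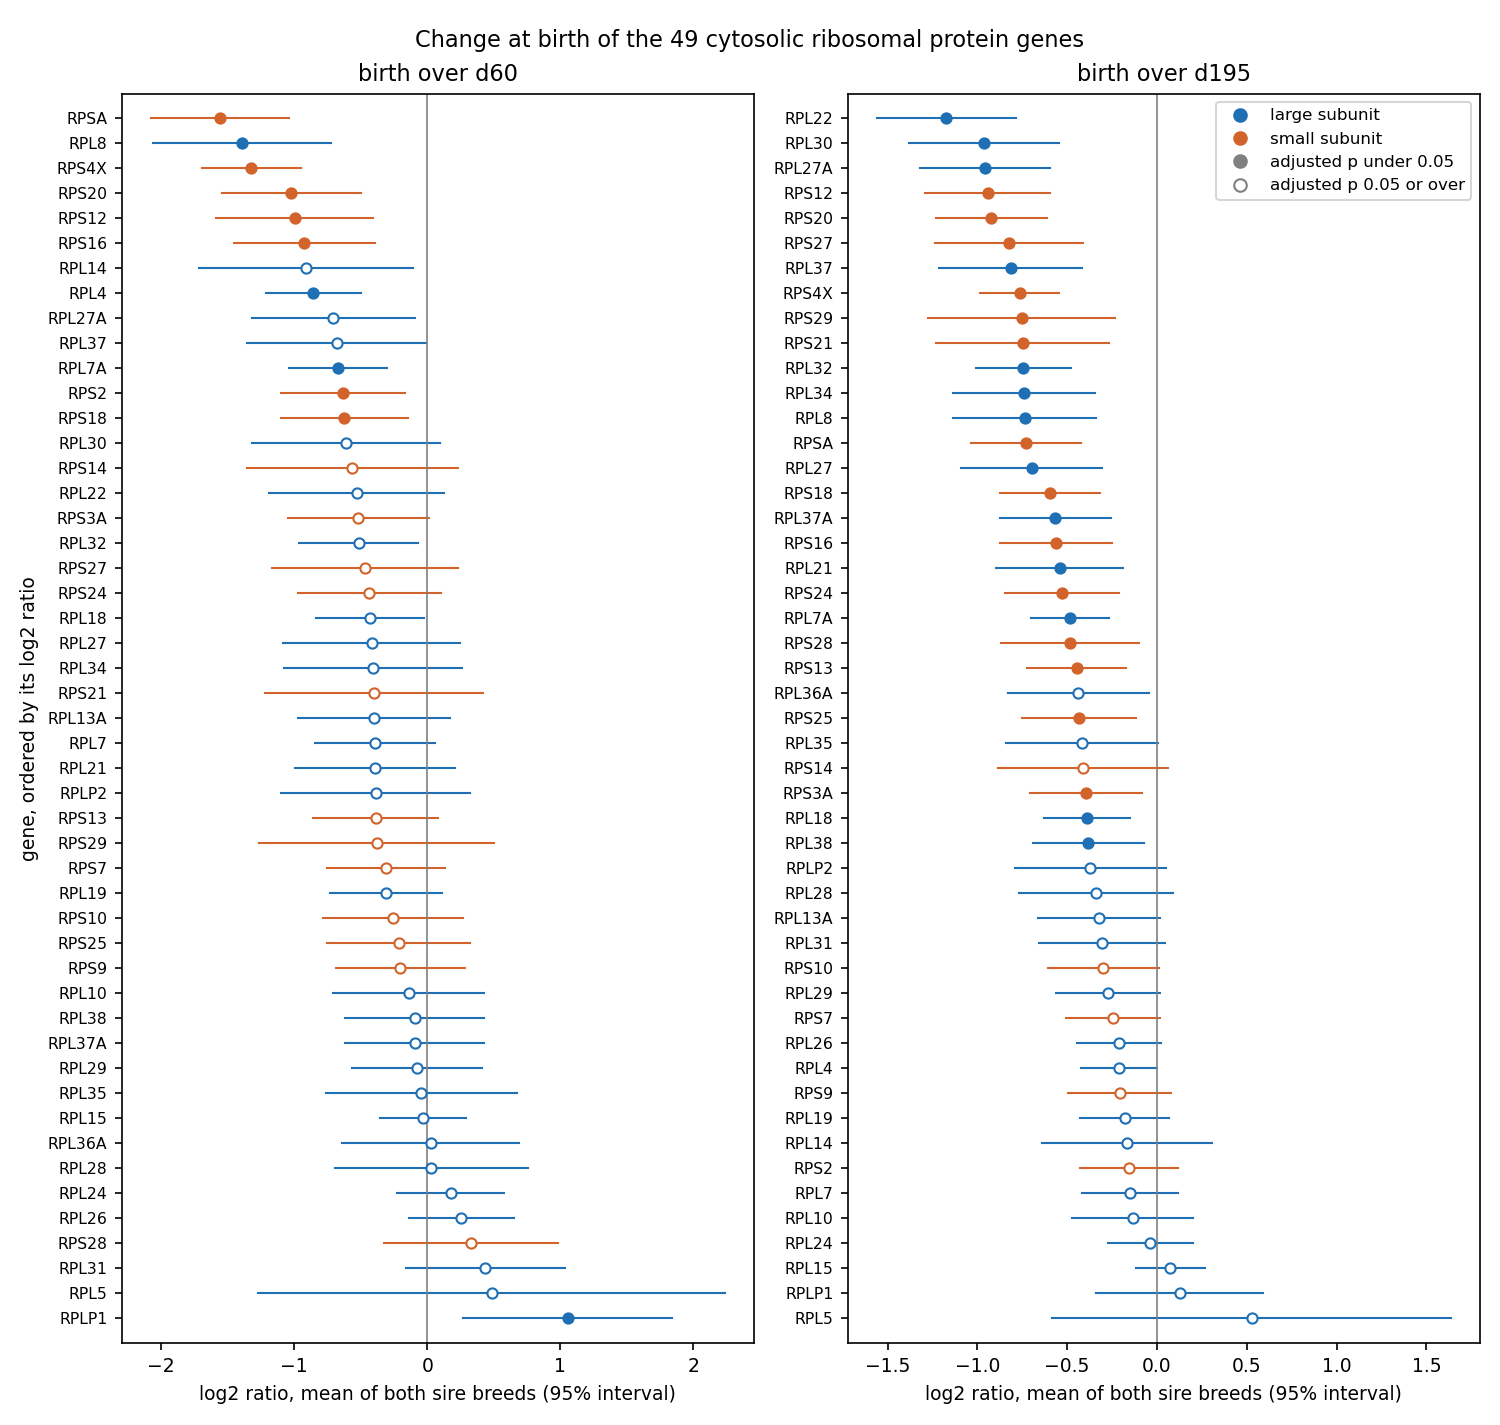
Log2 ratio of each of the 49 genes for birth over d60 (left) and birth over d195 (right), mean of both sire breeds, with the 95% interval of the fit. Filled points passed an adjusted p of 0.05; on the left 10 genes lie below 0 and RPLP1 above it, and on the right all 27 filled points lie below 0.

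The single stage steps split this change into parts. Between d60 and d135, 7 of the 49 genes rose (14.3%), against 14% of all features, and 3 fell (6.12%), against 17%, with a median of 0.192 against -0.0267 over all features. The 3 genes that fell were RPL4, RPSA and RPS4X, which also fell from d60 to birth. The genes that rose included RPS28, RPS29 and RPS27, among the shortest proteins of the small subunit, and RPL37A and RPL31 of the large subunit.

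RPS28 had values of 0.57, 1.11 and 1.25 on the arrays of the Piedmontese crosses and of 0.51, 1.49 and 1.04 on those of the Wagyu crosses. All 6 arrays of d135 over d60 were thus above 0 in both sire breeds. The fitted change was 0.99 (SE 0.185, limma adjusted p = 0.000372). RPS29 rose by 0.67, RPL22 by 0.60, RPLP1 by 0.60, RPS27 by 0.58, RPL37A by 0.53 and RPL31 by 0.52. Of these 7 genes, 6 were above 0 on every array of the step.

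RPL4 had values of -0.76, -0.52 and -0.80 on the Piedmontese arrays of d135 over d60 and of 0.00, -0.47 and -0.66 on the Wagyu arrays. RPSA had -0.28, -0.67 and -1.02 in the Piedmontese and -0.23, -0.54 and -0.46 in the Wagyu crosses, below 0 on every array. The fitted changes were -0.54 for RPL4 (SE 0.101, limma adjusted p = 0.000418) and -0.53 for RPSA (SE 0.147, limma adjusted p = 0.00842), and RPS4X fell by 0.36. The count of genes past the threshold in this step was 4 without array 3 and 5 without array 2 of the Piedmontese link. It was 5 and 6 without arrays 3 and 2 of the Wagyu link. The shares of all features in these fits are not given here.

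Between d135 and d195 none of the 49 genes passed the threshold (limma, 5 at an unadjusted p under 0.05), while 10.6% of all features rose and 6.19% fell. The median of the 49 genes was -0.0999. Here and below, counts at an unadjusted p stand without the share of all features at that cut. The shares given beside them are at the adjusted p. The smallest p-values belonged to RPL26 at 0.29 (adjusted p = 0.063), RPS16 at -0.34 and RPS7 at -0.28. A count of 1 was reached without array 3 of d195 over d135 in Piedmontese crosses, without array 3 of birth over d195 in Wagyu crosses or without array 1 of the d60 sire breed comparison.

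The last step, from d195 to birth, was where most of these genes fell. Of the 49 genes, 27 fell and 0 rose (55.1%), whereas 25.8% of all features fell and 26.7% rose. The median of the genes was -0.434, against 0.000667 over all features and -0.0866 over the other named genes. The fall included 14 of 19 small subunit genes (73.7%) and 13 of 30 large subunit genes (43.3%), with medians of -0.528 and -0.376. Within Piedmontese crosses the shares were 21.1% and 16.7%, and within Wagyu crosses 84.2% and 73.3%. The difference between the subunits was not tested. Of the 27 genes, 20 were below 0 on all 6 arrays of the step.

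RPL22, an RNA-binding protein of the large subunit known to be dispensable for general translation, had values of -1.34, -0.35 and -0.71 on the Piedmontese arrays of birth over d195 and of -1.84, -1.73 and -1.07 on the Wagyu arrays. It was below 0 on every array. The arrays of the sire breeds overlapped, and the difference between the sire breeds in this step did not pass the threshold (limma adjusted p = 0.196). Its fitted change was -1.17 (SE 0.187, limma adjusted p = 2.38e-05), after the rise of 0.60 from d60 to d135. RPL22 rests on 1 clone.

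RPS20, part of the head of the small subunit, had values of -0.60, -0.83 and -0.71 in the Piedmontese and of -1.67, -1.47 and -0.25 in the Wagyu crosses. All arrays were below 0, and array 3 of the Wagyu link was the nearest to it. RPS20 fell by 0.92 on the log2 scale (SE 0.148, limma adjusted p = 2.57e-05). RPL27A had -0.69, -0.47 and -0.73 in the Piedmontese and -1.73, -1.73 and -0.40 in the Wagyu crosses, the same pattern over the arrays, and fell by 0.96 (SE 0.173, limma adjusted p = 9.75e-05). RPS4X, with -0.70, -0.34 and -0.61 in the Piedmontese and -1.24, -0.85 and -0.85 in the Wagyu crosses, fell by 0.77 with the smallest p-value of the group (SE 0.105, limma adjusted p = 3.91e-06).

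Other large falls in this step were those of RPL30 (0.97 on the log2 scale), RPS12 (0.94), RPS27 (0.82), RPL37 (0.82), RPS29 (0.75) and RPS21 (0.75), and the smallest fall past the threshold was that of RPL38 (0.38). RPSA fell again, by 0.73. The zinc-binding proteins RPS27, RPS29 and RPL37A, which had risen by d135, fell here, RPL37A by 0.57. RPLP1 gave 0.13 and RPLP2 -0.37, neither past the threshold. The fibroblast genes moved in the same direction in this step, with 10 of 11 lower and a median of -1.85, and 10 of 17 muscle genes rose. The part of the tissue's make-up in the fall of the ribosomal protein genes was not tested. The count of 27 ranged from 20 to 33 when single arrays were left out. It was 33, all lower, without array 3 of the Wagyu link, against 26.4% of all features lower and 26.9% higher. With the arrays scaled to the same spread it was 13, and the share of all features there is not given here.

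The fall was counted in each sire breed too. From d195 to birth, 38 of the 49 genes fell in Wagyu crosses (77.6%, against 22.9% of all features) and 9 fell in Piedmontese crosses (18.4%, against 18.9% of all features). None rose in either, against 21.7% of all features in Wagyu and 20.7% in Piedmontese crosses. The medians were -0.778 and -0.207. The 9 genes of the Piedmontese crosses were RPS4X, RPS20, RPSA, RPS12, RPL22, RPL27A, RPL32, RPL8 and RPL4. The medians of the 49 genes on single arrays were -0.249, -0.218 and -0.239 in Piedmontese crosses, which is a narrow range, and -1.06, -0.981 and -0.176 in Wagyu crosses. Without array 3 the count in Wagyu crosses was also 38, against 23.5% of all features, and the median was -1.02.

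From d60 to birth, 28 genes fell in Wagyu crosses (57.1%, against 24.7% of all features) and none rose (against 20.2%), with a median of -0.815. Without array 3 of birth over d195 in Wagyu crosses, 35 genes fell, against 25.4% of all features, and the median was -0.959. In Piedmontese crosses 5 fell from d60 to birth (10.2%, against 22.9% of all features) and 2 rose (4.08%, against 22.1%), with a median of 0.0683. Without that array 8 fell and 1 rose, with a median of -0.0761, and without array 1 of the sire breed comparison at d60 or at birth 4 or 5 rose and 5 fell. The genes that rose in Piedmontese crosses were RPLP1 (1.45, SE 0.427) and RPL31 (0.86, SE 0.324), and those that fell were RPL14, RPSA, RPS4X, RPL4 and RPL8. Whether the step from d195 to birth differed between the sire breeds was tested as a contrast of its own: 0 of the 49 genes and 0% of all features passed (limma, 23 genes at an unadjusted p under 0.05), with a median of 0.557. The largest differences by p-value were those of RPS14 (1.50, SE 0.384, adjusted p = 0.133), RPL10 (0.82, adjusted p = 0.185) and RPL35 (1.01, adjusted p = 0.191). Without array 3 of birth over d195 in Wagyu crosses, 13 genes passed, all upwards, against 4.12% of all features upwards and 3.29% downwards.

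**Figure D3:**
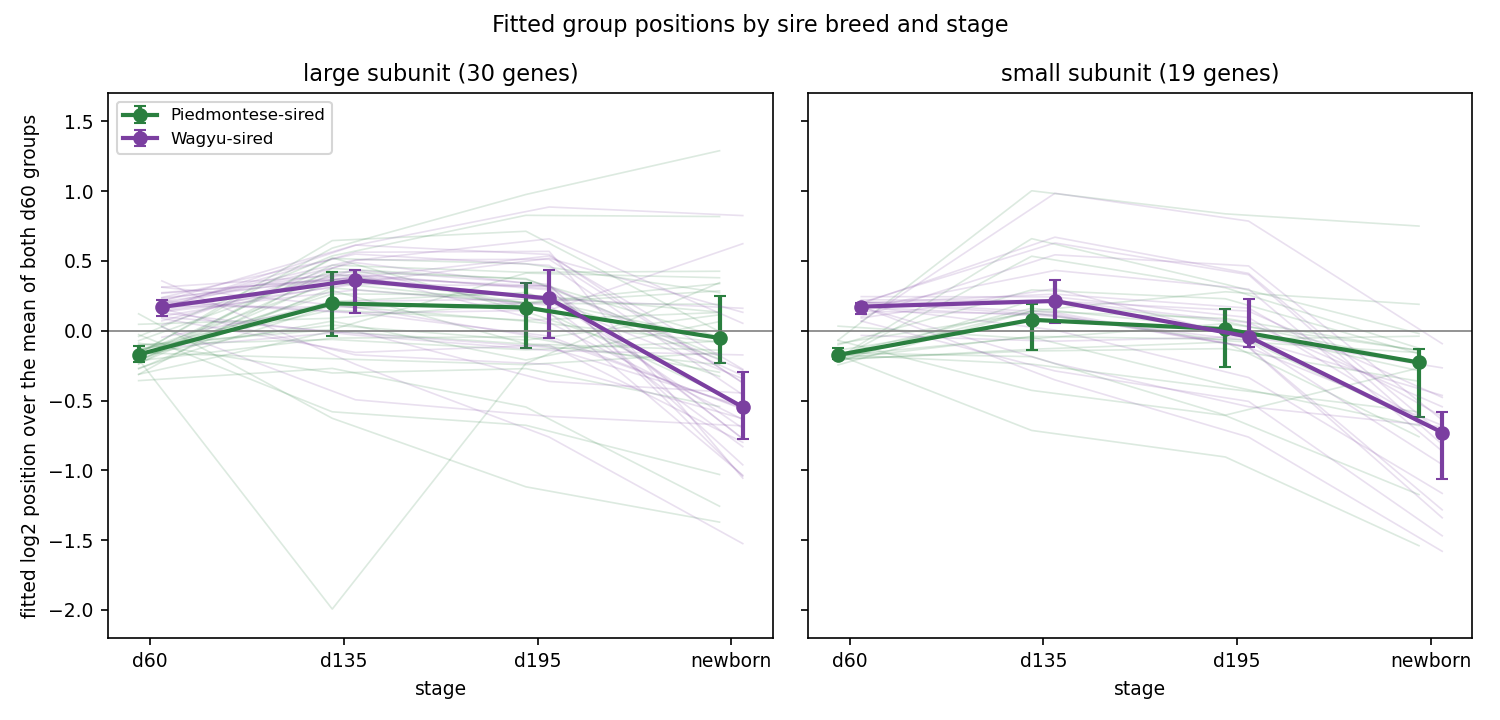
Fitted log2 position of each gene (thin lines) in the 8 fetal and newborn groups relative to the mean of both d60 groups, large subunit left and small subunit right. Thick lines join the medians of the genes, with bars from the lower to the upper quartile over genes; the Wagyu-sired median falls to -0.547 (large) and -0.729 (small) at birth, the Piedmontese-sired one to -0.052 and -0.227.

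The plot of fitted positions places the 8 groups on one scale. At d60 the median of the 49 genes lay at -0.172 in Piedmontese and 0.172 in Wagyu crosses, at d135 at 0.141 and 0.262, at d195 at 0.0659 and 0.147, and at birth at -0.14 and -0.636. The order of the sire breeds was thus reversed at birth. Positions of neighbouring stages share arrays, and the tests of the differences between them are those given in the text.

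The sire breeds were compared at each stage. At d60 none of the 49 genes passed the threshold, against 0.048% of all features (limma, 10 genes at an unadjusted p under 0.05), while the values of 46 genes were below 0 and the median was -0.345. RPL13A, with the smallest p, had values of -0.25, -0.70 and -1.01 (Piedmontese-sired over Wagyu-sired) and a fitted ratio of -0.62 (adjusted p = 0.237). RPL8 followed with -0.71 (adjusted p = 0.245) and RPL18 with -0.43 (adjusted p = 0.246). Without array 1 at d60, 0 of the 49 genes and 0% of all features passed, and the median was -0.549.

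At d135 and d195, where no array compared the sire breeds directly, 0 of the 49 genes and 0% of all features passed (limma, 1 gene at an unadjusted p under 0.05 at each stage). The medians were -0.0862 and -0.0306, and turned to 0.27 and 0.00197 without centring of the arrays. At d195 the median was 0.128 without array 1 of the sire breed comparison at birth. The smallest p-values belonged at d135 to RPL5 (-2.12), RPL26 (-0.34) and RPS14 (-0.62), and at d195 to RPS14 (-0.90), RPL14 (-0.76) and RPL10 (-0.41). RPL5, which is handed to the ribosome together with the 5S RNA, rests on 1 clone that had a value on 22 of 25 arrays and ranged from -2.98 to 4.17 between arrays.

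At birth 0 of 49 genes passed, against 0.276% of all features (limma, 32 genes at an unadjusted p under 0.05, 30 of them higher in Piedmontese crosses). The share of all features at that unadjusted p is not given here, so the 32 cannot be set against it. The values of 46 genes were above 0 and the median was 0.475, against 0.00828 over all features. RPL22 had the smallest p, with values of 0.28, 2.00 and 1.11 on the 3 arrays and a fitted ratio of 1.05 (SE 0.246, adjusted p = 0.0645). RPS25 gave 0.81 (adjusted p = 0.0693) and RPS18 gave 0.67 (adjusted p = 0.0767). Without array 1 of this comparison 28 genes passed, 27 of them higher, against 9.15% of all features higher and 3.91% lower. Without array 3 of birth over d195 in Wagyu crosses 7 genes passed, all higher, against 1.46% of all features higher and 1.26% lower.

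The change of the sire breed difference from d60 to birth was tested next, which is also the test of whether the change from d60 to birth differed between the sire breeds. Of the 49 genes, 26 moved towards a higher ratio of Piedmontese-sired over Wagyu-sired (53.1%), against 5.26% of all features, and 0 moved the other way, against 7.94% of all features. They were 16 of 30 large subunit and 10 of 19 small subunit genes. The median of the 49 genes was 0.841, against 0.0244 over all features and -0.133 over the other named genes, of which 3.46% moved up and 9.4% down.

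RPL37A, a zinc-binding protein of the large subunit, had the smallest p. Its ratio of Piedmontese-sired over Wagyu-sired was 0.06, -0.67 and -0.91 on the arrays at d60 and 0.30, 1.08 and 0.91 at birth. The arrays of d60 and of birth did not overlap, with array 1 at d60 the nearest to those at birth. The change was 1.21 (SE 0.255, limma adjusted p = 0.0104), and all 8 of its clones gave a positive value, between 0.698 and 1.52.

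RPL22 had 0.19, -0.79 and -0.65 at d60, below its 0.28, 2.00 and 1.11 at birth, and changed by 1.39 (SE 0.322, limma adjusted p = 0.0144). RPS25, a small subunit protein used in initiation at internal ribosome entry sites, had 0.31, -0.64 and -0.90 at d60 and 0.09, 1.27 and 1.08 at birth, so that array 1 gave the higher value at d60. It changed by 1.20 (SE 0.262, limma adjusted p = 0.0117). RPL34, with 0.14, -0.92 and -1.11 at d60 and -0.09, 1.38 and 0.90 at birth, showed the same overlap in array 1 and changed by 1.35 (SE 0.327, limma adjusted p = 0.0171).

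The other changes among the 10 largest past the threshold were RPL27 at 1.19, RPL36A at 1.18, RPL28 at 1.16, RPL37 at 1.16, RPL21 at 1.15 and RPS27 at 1.09, and the smallest past the threshold was RPL15 at 0.55. Of the genes with most elements, RPL13A changed by 0.93, RPL18 by 0.69 and RPS12 by 0.97, all past the threshold, while RPSA gave 0.39 and RPLP1 0.78, which were not. RPL14 had the largest change in the other direction, at -1.17 (limma adjusted p = 0.053), and the values of RPL4 and RPL24 were also negative. RPL14 had ratios of 0.40, 0.21 and 0.44 at d60 and of -0.40, -2.17 and -0.53 at birth, so its arrays at birth lay below all of those at d60.

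This result rested on few arrays. The count of 26 was 3 and 1 without array 2 or array 3 at d60, and 9 and 1 without array 2 or array 3 at birth. It was 36 without array 1 at d60, where 8.46% of all features moved up and 7.97% down. Without array 1 at birth it was 39, against 13.1% up and 10.8% down. Without array 3 of birth over d195 in Wagyu crosses it was 36, against 10.1% up and 11.2% down. With every array, 5.26% of all features moved up and 7.94% down. The shares of all features for the lower counts are not given here. Other genes moved on the same arrays: the fibroblast medians were 0.106, 0.351 and 0.208 at d60 and -0.266, -0.424 and -0.657 at birth, and 3 of the 11 fibroblast genes, COL3A1, FN1 and FBN1, moved down past the threshold from d60 to birth. Of the 17 muscle genes 1, NEB, moved down. The part of these cell types in the change of the ribosomal protein genes was not tested.

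**Figure D4:**
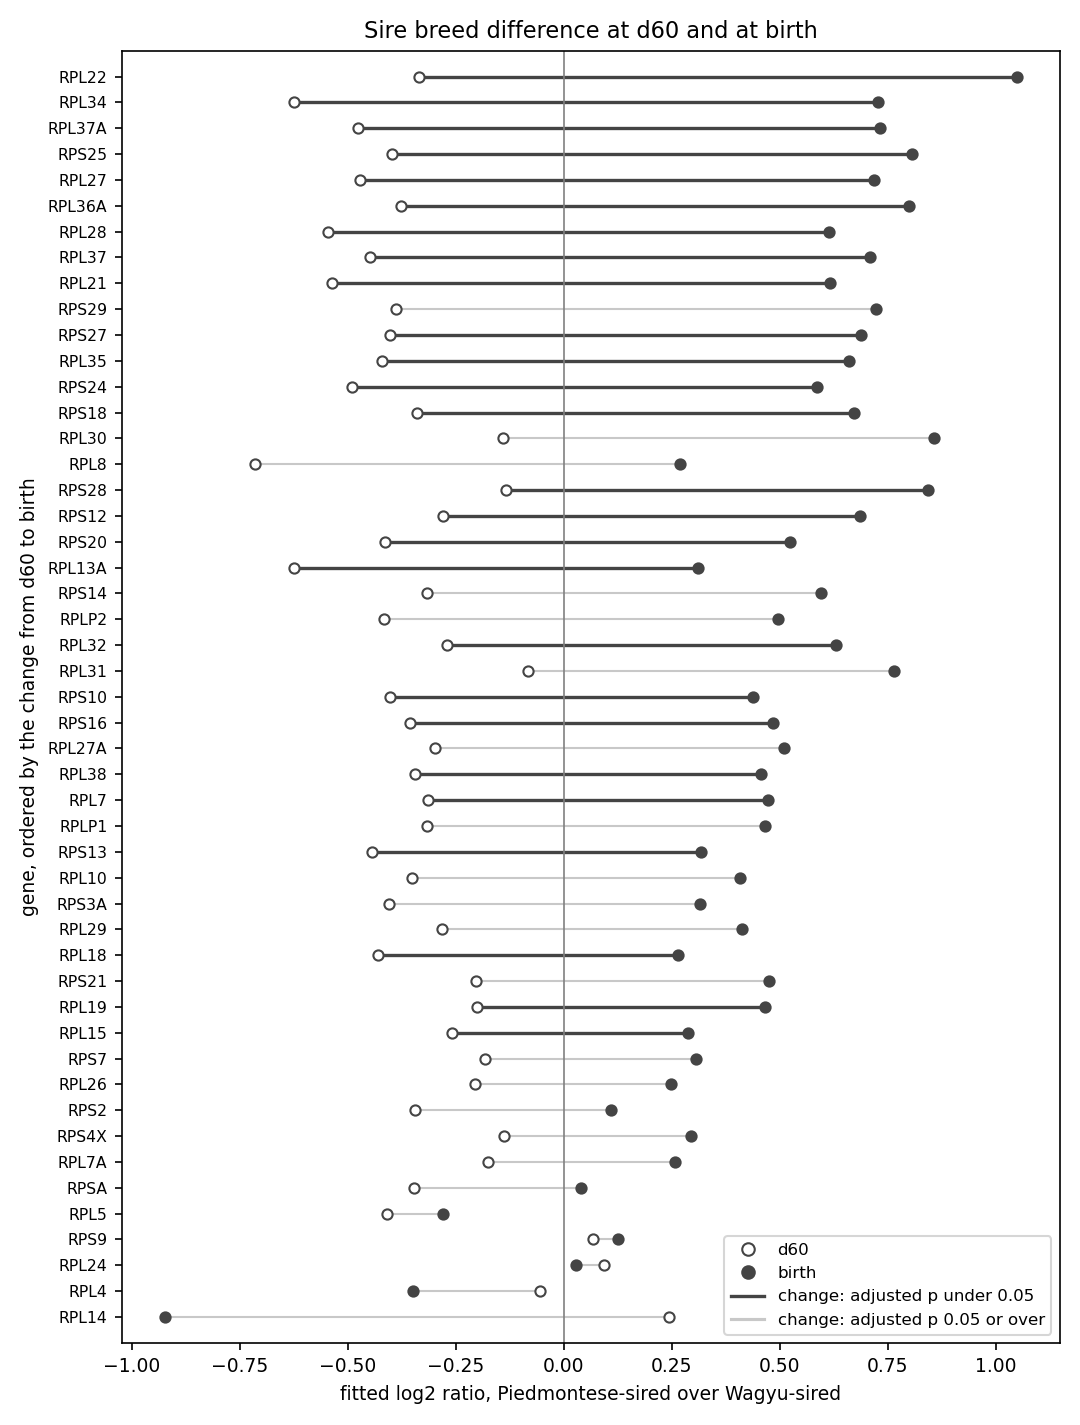
Fitted log2 ratio of Piedmontese-sired over Wagyu-sired for each of the 49 genes at d60 (open) and at birth (filled), ordered by the change. Dark lines mark the 26 genes whose change passed an adjusted p of 0.05. At d60 46 genes lie below 0 and at birth 46 above 0, and RPL14 at the bottom moved furthest the other way.

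Other genes of translation were set beside the ribosomal proteins. Of 11 translation factors measured, 5 rose from d60 to birth and none fell, with a median of 0.474, led by the initiation factors EIF3M (1.33, SE 0.272), EIF1 (0.75, SE 0.236) and EIF3J (0.53, SE 0.166). From d195 to birth 4 of the 11 rose and none fell, with a median of 0.365, whereas 27 of the 49 ribosomal protein genes fell. None of the 11 passed in the change of the sire breed difference from d60 to birth, with a median of 0.0635. RACK1, a scaffold on the small subunit, fell by 0.60 (SE 0.155) from d60 to birth. It passed the threshold as lower in the steps to d135 and to d195, but as higher in the step from d195 to birth.

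Among 4 measured genes of ribosome assembly and of the nascent chain, NACA fell by 0.90 (SE 0.216) and NPM1 by 1.16 (SE 0.393) from d60 to birth, while SBDS rose by 0.95 (SE 0.351). NACA binds chains as they leave the ribosome, NPM1 is a nucleolar assembly factor, and SBDS frees the large subunit for joining. Of the 9 mitochondrial ribosomal protein genes, MRPL35 (1.14) and MRPL42 (0.88) rose and MRPL20 (-0.48) fell over this time. None of the 9 passed in the change of the sire breed difference, with a median of 0.373. From d195 to birth 1 of the 4 assembly and nascent chain genes rose and 0 fell. In that step 4 of the 9 mitochondrial genes rose and 2 fell.

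The markers of other cell types that were measured gave mixed values from d60 to birth. Of 10 adipocyte genes, LPL (1.16) and CD36 (0.77) rose and 3 fell, with SCD at -1.73 past the threshold. Of 5 immune genes, CD74 and S100A8 rose and CTSS fell, and of 3 endothelial and mural genes EGFL7 fell. Genes of skin, blood, cartilage and nerve had no single-name element on these arrays, so their share in the d60 samples cannot be read here.

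On the later arrays 12.2% of the 49 genes passed the threshold in at least 1 comparison, against 16.4% of all features. For the fetal comparisons over time these shares were 63.3% and 68.8%, so both were lower on the later arrays. At T1 none of the 49 genes differed between the sire breeds, against 0.753% of all features (limma, 9 genes at an unadjusted p under 0.05, all lower in Piedmontese crosses). The median was -0.14. The smallest p-values were those of RPS12 (-0.41, adjusted p = 0.0949), RPL36A (-0.28) and RPL13A (-0.30). Without array 3 at T1, 1 gene passed, and the share of all features in that fit is not given here.

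At T2, 3 of the 49 genes (6.12%) were lower in Piedmontese crosses, against 2.36% of all features, and none was higher, against 0.922%. The 3 genes were RPL14, RPS7 and RPL27A. RPL14 had ratios of -1.07, -1.35, -1.09 and -0.38 on the 4 arrays, all below 0, and a fitted ratio of -0.91 (SE 0.142, limma adjusted p = 0.00108). RPS7, which takes part in the assembly of the small subunit, had -0.36, -0.82, -0.42 and -0.75, also all below 0, and gave -0.62 (SE 0.143, limma adjusted p = 0.0221). RPL27A had -0.47, -0.34, -0.17 and -0.21 and gave -0.31 (SE 0.0801, limma adjusted p = 0.0448). The count of 3 was 1 without array 1, 2 or 4 at T2.

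RPL14 differed at T2 and not at the times beside it. Its arrays gave 0.22, -0.08, 0.23 and 0.27 at T1 and 0.09, 0.16, 0.43 and 0.51 at T3, all above every array at T2. In the step from T2 to T3 within Wagyu crosses its values were -1.57 and -0.24, and from T1 to T2 they were 0.71 and 0.70, so T2 was the highest of these times within Wagyu crosses. The fitted steps there were 0.73 (SE 0.194, limma adjusted p = 0.048) and -1.01 (SE 0.194, limma adjusted p = 0.00416). Within Piedmontese crosses the values were -0.28 and -0.34 and then 0.00 and 0.10. The change of the sire breed difference of RPL14 was -1.06 from T1 to T2 (SE 0.192, limma adjusted p = 0.00568) and 1.16 from T2 to T3 (SE 0.192, limma adjusted p = 0.00364). It was the only one of the 49 genes past the threshold in these steps, where 0.91% of all features moved down and 0.22% up in the first and 0.73% up and 0.11% down in the second. Both calls were kept without any single array, and were lost when array number 1 was left out of every link (-0.96, adjusted p = 0.242, and 1.09, adjusted p = 0.196). RPL14 rests on 1 clone.

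At T3 none of the genes differed between the sire breeds, against 0.539% of all features (limma, 18 genes at an unadjusted p under 0.05, all lower in Piedmontese crosses). The median was -0.198, with RPL18 (-0.33), RPS27 (-0.40) and RPL10 (-0.27) at the smallest p. The medians of the 49 genes on the 4 arrays were 0.00675, -0.038, -0.289 and -0.477. From T1 to T3 the sire breed difference changed for 0 of 49 genes, against 0.116% of all features (limma, 4 at an unadjusted p under 0.05), with RPS3A (-0.50), RPS27 (-0.40) and RPLP1 (-0.35) at the smallest p.

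Over time, RPL21 fell by 0.38 from T1 to T2 (limma adjusted p = 0.0489), 1 of 49 genes (2.04%) against 4.06% of all features that fell, and none rose, against 2.8%. That call was lost in 15 of the 20 fits without a single array. From T2 to T3, 4 of 49 genes rose (8.16%), against 6.73% of all features, and none fell, against 3.98%. They were RPL37A, RPL21, RPS13 and RPL27A. The median was 0.179, with 0.155 for the large and 0.266 for the small subunit.

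RPL37A had values of 0.61 and 0.35 on the Piedmontese and of 0.69 and 0.82 on the Wagyu arrays of T3 over T2, all above 0, and rose by 0.62 (SE 0.142, limma adjusted p = 0.0114). RPL21 had 0.56 and 0.19, and 0.94 and 0.51, again all above 0, and rose by 0.55 (SE 0.112, limma adjusted p = 0.00577). RPS13 rose by 0.41 and RPL27A by 0.37, each with all 4 arrays above 0. The count of 4 was 0 without array 1 and 2 without array 2 of the Piedmontese link, and 2 without array 2 of the Wagyu link. Over the same step 5 of 11 fibroblast and 5 of 17 muscle genes fell, and their part in the values of the ribosomal protein genes was not tested.

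**Figure D5:**
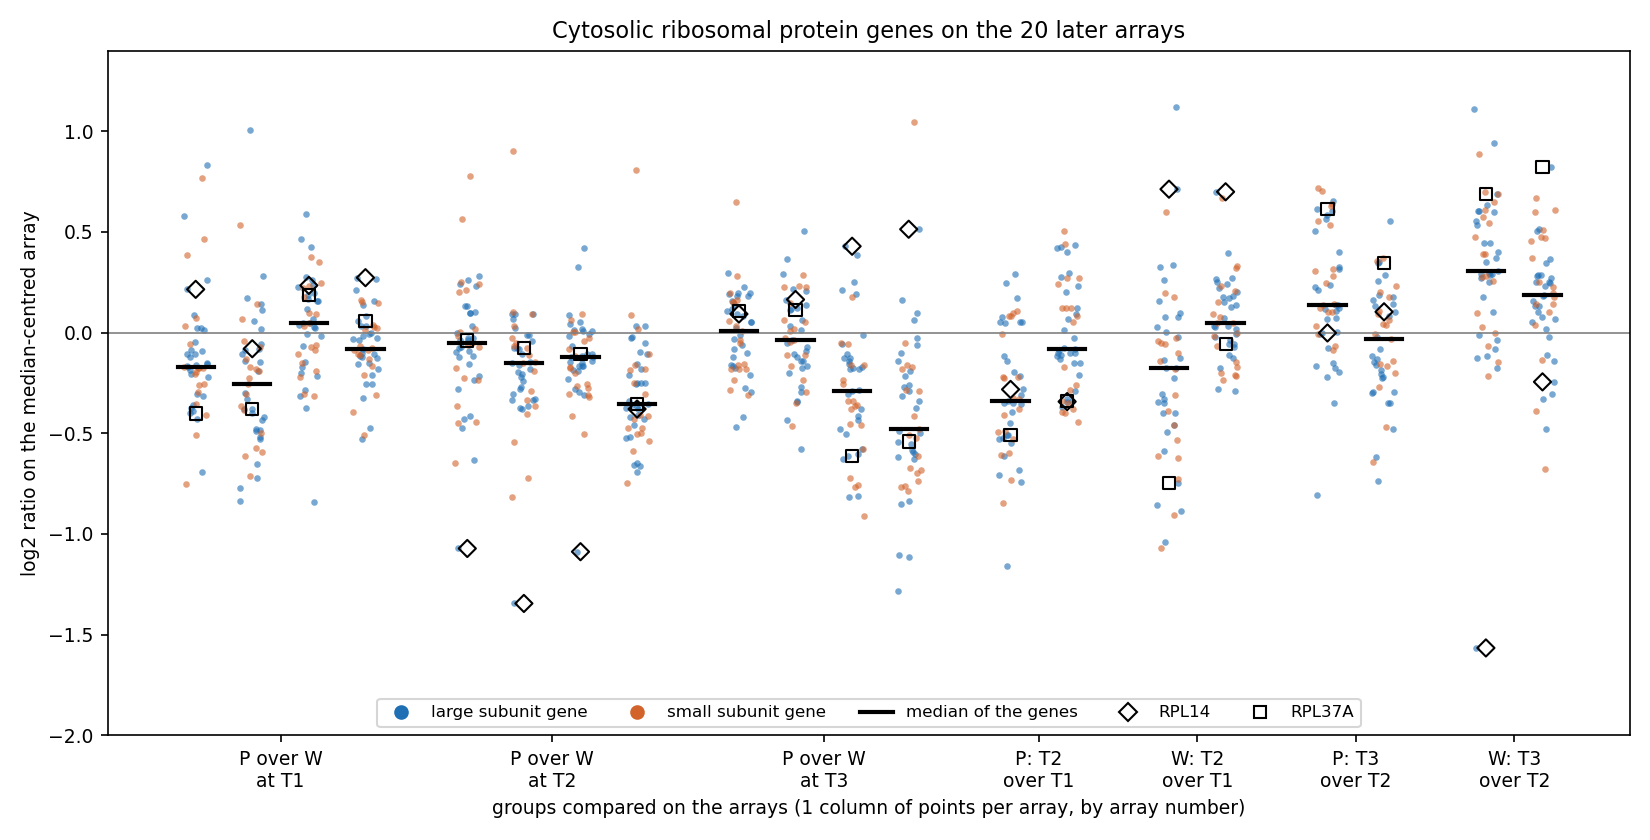
Log2 ratios of the 49 genes on each of the 20 later arrays, as Piedmontese-sired (P) over Wagyu-sired (W) or later over earlier time, with bars at the median of the genes. RPL14 (diamonds) lies between -1.35 and -0.38 on the 4 arrays at T2 and between -0.08 and 0.51 on those at T1 and T3, and RPL37A (squares) is above 0 on all 4 arrays of T3 over T2.

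Over all the comparisons listed in the design, 41 of the 49 genes passed the threshold at least once (83.7%), against 75.5% of all features. The 8 genes that never did were RPL10, RPL24, RPL26, RPL29, RPL5, RPLP2, RPS14 and RPS9. In the fetal stages 31 genes passed in at least 1 comparison over time (63.3%, against 68.8% of all features), and on the later arrays 43 genes passed in none (87.8%, against 83.6%). Between elements of the same gene, which include pairs of the same clone, values of birth over d195 had an SD of 0.227, against 0.291 between genes, and those of the change of the sire breed difference from d60 to birth 0.274 against 0.446. On an array of Piedmontese T1 RNA against itself, the 49 genes ranged from -0.661 to 0.291, with a median of 0.105 and an SD of 0.212.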

How the data were processed

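The values are log2 ratios (Cy5 over Cy3) that the authors deposited from two-colour arrays of amplified RNA, scanned and read with GenePix. Which editing steps they passed is not given in the sources used here, and intensities were not used. The deposited log2 ratios were turned so that the later stage or the Piedmontese-sired group was the numerator. Ratios at the cap (16.61) were set missing, 1842 on the fetal and 1079 on the later arrays, which left 19404 to 20946 elements per array. Each array was centred on its median (-0.482 to 0.465), which relates every value to the average element, and elements were averaged per gene. Genes were named from the platform annotation, where 4490 elements carried 1 symbol, 188 several and 16490 none, and all 49 gene identifiers matched the reference table with the same symbol. The number of arrays limits the precision.

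Features with values on 80% of the arrays were fitted with limma 3.58.1 in R 4.3.3, separately for 25 fetal (16659 features) and 20 later arrays (17253), with a coefficient per group and an intercept for the dye, Benjamini-Hochberg adjustment over all features, a threshold of 0.05 and intervals of 95%. RPL5 and RPS14 had values on 22 of the 25 fetal arrays. All links of the fetal loop ran one way, so dye and loop closure cannot be told apart there. Birth over earlier stages is the mean of both sire breeds.

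Single genes were named by rule: those past the threshold, at most 10 per direction (5 for single steps and later arrays), the 5 genes with most elements, RPLP0, RPLP1, RPLP2, RPSA, RPS27A and RPS6 and diverged paralogs where measured, otherwise the 3 smallest p-values, and 3 per other list. RPLP0, RPS27A, RPS6 and the paralogs were not measured under a single name. The genes, the lists and the comparisons were chosen with earlier results of these data known, and the contrasts from d195 to birth, T1 to T2 and T2 to T3 in the sire breed difference were added after seeing the data. In simulated data, a log2 change of 1 was recovered for 65 of 100 features in the sire breed comparison at birth (16659 features) and for 86 of 100 at T2 (17253 features). The simulated noise was independent between features, so these rates do not cover genes that move together on single arrays, as the genes described here did. Alternatives were no centring, other centring, scaling, the cap, the median over elements, values on every array, array weights, no dye intercept, a block for the array number, and leaving out arrays. A second table with 77 samples and 24 columns of other experiments were not used here, and the self-hybridisation entered no fit.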

Additional observations from a re-analysis of the deposited data

Results flagged for a closer look

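Outlying arrays were sought in 84 sets of 4 values, each a single gene or a median on a link with 4 arrays. In 4 of these sets an array lay far from the others. About 1 in 20 independent sets would hold one by chance. The sets here share the same arrays, so their count cannot be set against that share. In Wagyu crosses, array 3 of d195 over d135 gave the lowest median of the small subunit genes (-0.526) and the lowest values of RPLP1 (-0.098) and RPS7 (-0.744). At T1 the ratio of Piedmontese-sired over Wagyu-sired of RPL14 was lowest on array 2 (-0.08).

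The change of the sire breed difference from d60 to birth was tested as a difference between the sire breeds and passed for 26 genes. In the large subunit it was 1.39 for RPL22, 1.35 for RPL34, 1.21 for RPL37A, 1.19 for RPL27, 1.18 for RPL36A, 1.16 for RPL28, 1.16 for RPL37, 1.15 for RPL21, 1.08 for RPL35, 0.93 for RPL13A, 0.90 for RPL32, 0.80 for RPL38, 0.79 for RPL7, 0.69 for RPL18, 0.67 for RPL19 and 0.55 for RPL15. In the small subunit it was 1.20 for RPS25, 1.09 for RPS27, 1.08 for RPS24, 1.01 for RPS18, 0.98 for RPS28, 0.97 for RPS12, 0.94 for RPS20, 0.84 for RPS10, 0.84 for RPS16 and 0.76 for RPS13. On the later arrays the sire breed difference of RPL14 changed by -1.06 from T1 to T2 and by 1.16 from T2 to T3.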

How the results depend on the processing

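Only 18 results of single genes, all past the threshold in the fit of every array, were followed under the alternatives. None of them changed its direction. Under the settings that keep every array 161 of their values kept their side of the threshold and 1 lost it. On leaving out an array number 56 kept it and 16 lost it, and on leaving out a single array 410 kept it and 15 lost it. The other gene values in the text were not followed in this way. The median of the 49 genes changed sign for the sire breeds at d135 without centring (0.27), at d195 without centring (0.00197), with scaling (0.0157) and without array number 1 (0.14), for the change from T1 to T3 without array number 3 or 4 (0.0389 and 0.00125), and for T2 over T1 without array number 1 (0.0453). Counts of genes past the threshold differed by more than 1.5 times in the following settings. Without centring, the count was 16 for the change of the sire breed difference from d60 to birth, 1 for the sire breeds at T2, 0 for T2 over T1 and 2 for T3 over T2. Without centring the median of all features moved from -0.066 to -0.217 in birth over d60, from -0.0507 to -0.147 in d195 over d135, from 0.0107 to 0.367 and from 0.00828 to 0.175 in the sire breeds at d135 and birth, from 0.0244 to 0.132 and from 0.00775 to 0.135 in the changes from d60 and from d195 to birth, and from -0.00198 to 0.12 in that from T1 to T2. The features higher and lower were then 895 and 1129 in d195 over d135 (1772 and 1032 with centring), 452 and 346 in the change from d60 to birth (876 and 1322), 13 and 38 in the sire breeds at T1 (68 and 62) and 63 and 109 in the change from T1 to T2 (38 and 157), and with scaling 746 and 155 in the sire breeds at d60 (8 and 0). With arrays scaled to the same spread, the count was 13 for birth over d195, 3 for d195 over d135, 2 for the sire breeds at d60 and 0 for T2 over T1. With the median over elements it was 2 for d195 over d135, 1 for the sire breeds at T2 and 0 for T2 over T1. With values required on every array it was 1 for the sire breeds at birth, and without a dye intercept 0 for T2 over T1. With array weights it was 42 for the change from d60 to birth, 21 for that from d195 to birth, 20 for d135 over d60, 10 for d195 over d135, 14, 21, 5 and 3 for the sire breeds at birth, d60, T2 and T3, and 17 for T3 over T2. The estimation of the array weights stopped short of its convergence tolerance in a fit. Except where feature counts are given above, the counts of the 49 genes stand without the share of all features under the same setting. The cause of the differences between settings was not tested.

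Array numbers are shared between links and were not taken to pair the samples, since not every pair of the same number correlated above 0.1: of 84 fetal and 48 later pairs of the same number, 24 and 28 correlated above 0.1, and 9 of 25 and 10 of 20 arrays correlated best with their own number. The median correlation was -0.0139 within a number and -0.00606 otherwise on the fetal arrays, and 0.184 and 0.0407 on the later arrays. The counts of genes in the rest of this paragraph stand without the shares of all features in the same fits. With a replicate block (a dye intercept per array number) the count was 1 for the sire breeds at T2, 0 for T2 over T1 and 20 for the change from d60 to birth. Leaving out an array number gave 16 to 31 genes for birth over d195, 9 to 12 for birth over d60, 0 to 34 for the change from d60 to birth, 3 to 13 for d135 over d60, 0 to 1 for d195 over d135, 0 to 20 for the sire breeds at birth, 0 to 2 at T2, 0 for T2 over T1 and 0 to 4 for T3 over T2. Leaving out single arrays, chosen after seeing the data, gave 20 to 33 genes for birth over d195, 10 to 15 for birth over d60, 1 to 39 for the change from d60 to birth, 0 to 28 for the sire breeds at birth, 0 to 13 for the change from d195 to birth, 4 to 14 for d135 over d60, 0 to 1 for d195 over d135 and at T1, 1 to 3 at T2, 0 to 1 for T2 over T1 and 0 to 6 for T3 over T2.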
